A study of Homo sapiens with 6 samples.

Results

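The genes described here are 59 named genes of the NRF2 pathway, of detoxification and of redox balance, listed by symbol and role, with no measured value in the rule. Of the 59, 56 had a value among 10066 assembled loci, 53 were above 0 in all 6 libraries and could be given as ratios, and 55 had a mean of at least 1 FPKM and entered the tests. ALDH2, CYP1B1 and ABCC2 were not analysed here. RNA came from 3 established bladder cancer cell lines that all carry an FGFR3 fusion, with 1 library per line and treatment and 6 libraries in all. RT4 cells (FGFR3-TACC3) received 50 nM quisinostat, RT112 cells (FGFR3-TACC3) 10 nM and SW780 cells (labelled FGFR3-BAIBP2L1) 25 nM, each for 2 days, and each line had a DMSO control. Quisinostat is an inhibitor of histone deacetylases. RT4 cells were grown in McCoy's 5A medium and the other lines in DMEM. The medium of RT112 cells, but not that of SW780 cells, also had added non-essential amino acids and L-glutamine. Line, dose and medium therefore change together and cannot be told apart.

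NRF2, encoded by NFE2L2, is a transcription factor that KEAP1 holds in the cytoplasm and marks for degradation. Oxidants and electrophiles modify KEAP1, NRF2 then builds up in the nucleus, pairs with small MAF proteins and binds antioxidant response elements near genes for glutathione synthesis, thioredoxin, NADPH supply, drug metabolism and iron storage. Because this control acts on the protein, the mRNA of NFE2L2 is not itself a readout of NRF2 activity, and no protein was measured here. Many listed genes also answer to other factors, among them AP-1, BACH1 and the aryl hydrocarbon receptor.

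The core of the antioxidant response element, TGACNNNGC, was searched on both strands in RefSeq promoter windows running from 250 bases before to 50 bases after each start (GRCh38.p14). A window was found for 44 of the 59 genes, and 12 of the 44 (27.3%) held a match, beside 16.1% of 27305 genes in the table. By window the shares were 13 of 63 (20.6%) and 13.3% of 35116. The 12 were KEAP1, GCLM, GPX2, GSTP1, GSTO1, MGST1, TXNRD1, PGD, ME1, IDH1, CBR1 and EPHX1. No window was found for HMOX1, GSS, GSR, MGST2, PRDX1, PRDX6, AKR1B10, ALDH2, ALDH3A1, CBR3, CYP1B1, SOD1, FTH1, ABCC1 and ABCC3. These genes were not searched, nor were sites outside the windows. GSTM3, AKR1C1 and FTL had a window without a match. Shown here are the matches before the start of genes that changed at least 2-fold in RT4 or SW780 cells. The match of GSTP1 is also shown, because GSTP1 had the smallest p between the lines. The matches shown were chosen after the values were seen, and 1 match is shown where a window held several. Capitals mark the match, which reads in the orientation of the gene as TGACNNNGC or as its reverse complement.
GCLM: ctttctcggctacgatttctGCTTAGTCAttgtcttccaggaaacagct
TXNRD1: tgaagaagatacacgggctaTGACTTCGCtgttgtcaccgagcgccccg
ME1: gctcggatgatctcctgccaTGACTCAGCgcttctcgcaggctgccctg
CBR1: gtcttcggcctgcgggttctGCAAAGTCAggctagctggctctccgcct
EPHX1: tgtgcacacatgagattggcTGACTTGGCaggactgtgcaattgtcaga
PGD: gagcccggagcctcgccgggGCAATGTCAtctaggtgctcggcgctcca
KEAP1: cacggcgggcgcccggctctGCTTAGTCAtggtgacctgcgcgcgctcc
GSTP1: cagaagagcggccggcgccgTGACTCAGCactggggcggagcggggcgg
The matches of ME1 and GSTP1 overlap the AP-1 motif TGACTCA. They lie at chr1:93909436-93909484 (GCLM, minus strand, 34 bases before the start), chr12:104215660-104215708 (TXNRD1, plus, 99 bases), chr6:83431160-83431208 (ME1, minus, 137 bases), chr21:36069845-36069893 (CBR1, plus, 159 bases), chr1:225825256-225825304 (EPHX1, plus, 78 bases), chr1:10398843-10398891 (PGD, plus, 201 bases), chr19:10502774-10502822 (KEAP1, minus, 31 bases) and chr11:67583726-67583774 (GSTP1, plus, 66 bases). A match is a description of letters and not a bound site, since binding was not measured.

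The listed genes did not move as 1 block, and the same genes moved differently in the 3 lines. Values are FPKM, which scales fragments by the length of the transcript and by the mapped fragments of the library, and a ratio is quisinostat over DMSO in the same line, with no replicate behind it. Each value is relative to all RNA of its library, so fewer cells of a kind and less RNA per cell cannot be told apart. In RT4 cells 18 of the 53 genes with ratios (34.0%) were at least 2-fold higher with quisinostat, beside 18.0% of the 9112 loci above 0 in all libraries. In that line 4 genes (7.55%) were at least 2-fold lower, beside 14.1% of loci. SW780 cells gave the opposite split, with 15 genes (28.3%) at least 2-fold lower beside 7.35% of loci, and 4 (7.55%) at least 2-fold higher beside 10.5%. RT112 cells changed least, with 3 genes (5.66%) at least 2-fold higher beside 13.8% of loci and 1 (1.89%) at least 2-fold lower beside 3.60%. For the 53 genes the median log2 ratio was 0.52 for RT4, -0.07 for RT112 and -0.37 for SW780, beside 0.08, 0.06 and 0.04 over all loci.

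The 18 genes that were higher in RT4 cells were HMOX1, GCLM, GSTM3, MGST3, TXN, TXNRD1, SRXN1, PRDX1, PRDX4, ME1, AKR1B1, AKR1B10, AKR1C1, ALDH1A1, ALDH1A3, CBR1, FTL and FTH1, and the 4 that were lower were KEAP1, GPX1, PRDX2 and ALDH3A1. The 15 lower genes of SW780 cells were KEAP1, NQO1, HMOX1, GCLC, GSTM3, MGST1, PGD, TKT, AKR1C1, AKR1C2, AKR1C3, ALDH3A1, EPHX1, FTL and FTH1, and the 4 higher ones were GPX3, MGST3, ALDH1A1 and ALDH1A3. In RT112 cells GPX3, PRDX5 and ALDH1A1 were higher and AKR1C2 was lower. The summed FPKM of the listed genes was 2.09% of all FPKM in RT4 cells with DMSO and 4.32% with quisinostat, 1.95% and 1.84% in RT112 cells, and 3.99% and 2.56% in SW780 cells. Without both ferritin chains the shares were 1.42% and 2.29% in RT4, 1.45% and 1.46% in RT112, and 2.32% and 1.83% in SW780 cells.

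**Figure D1:**
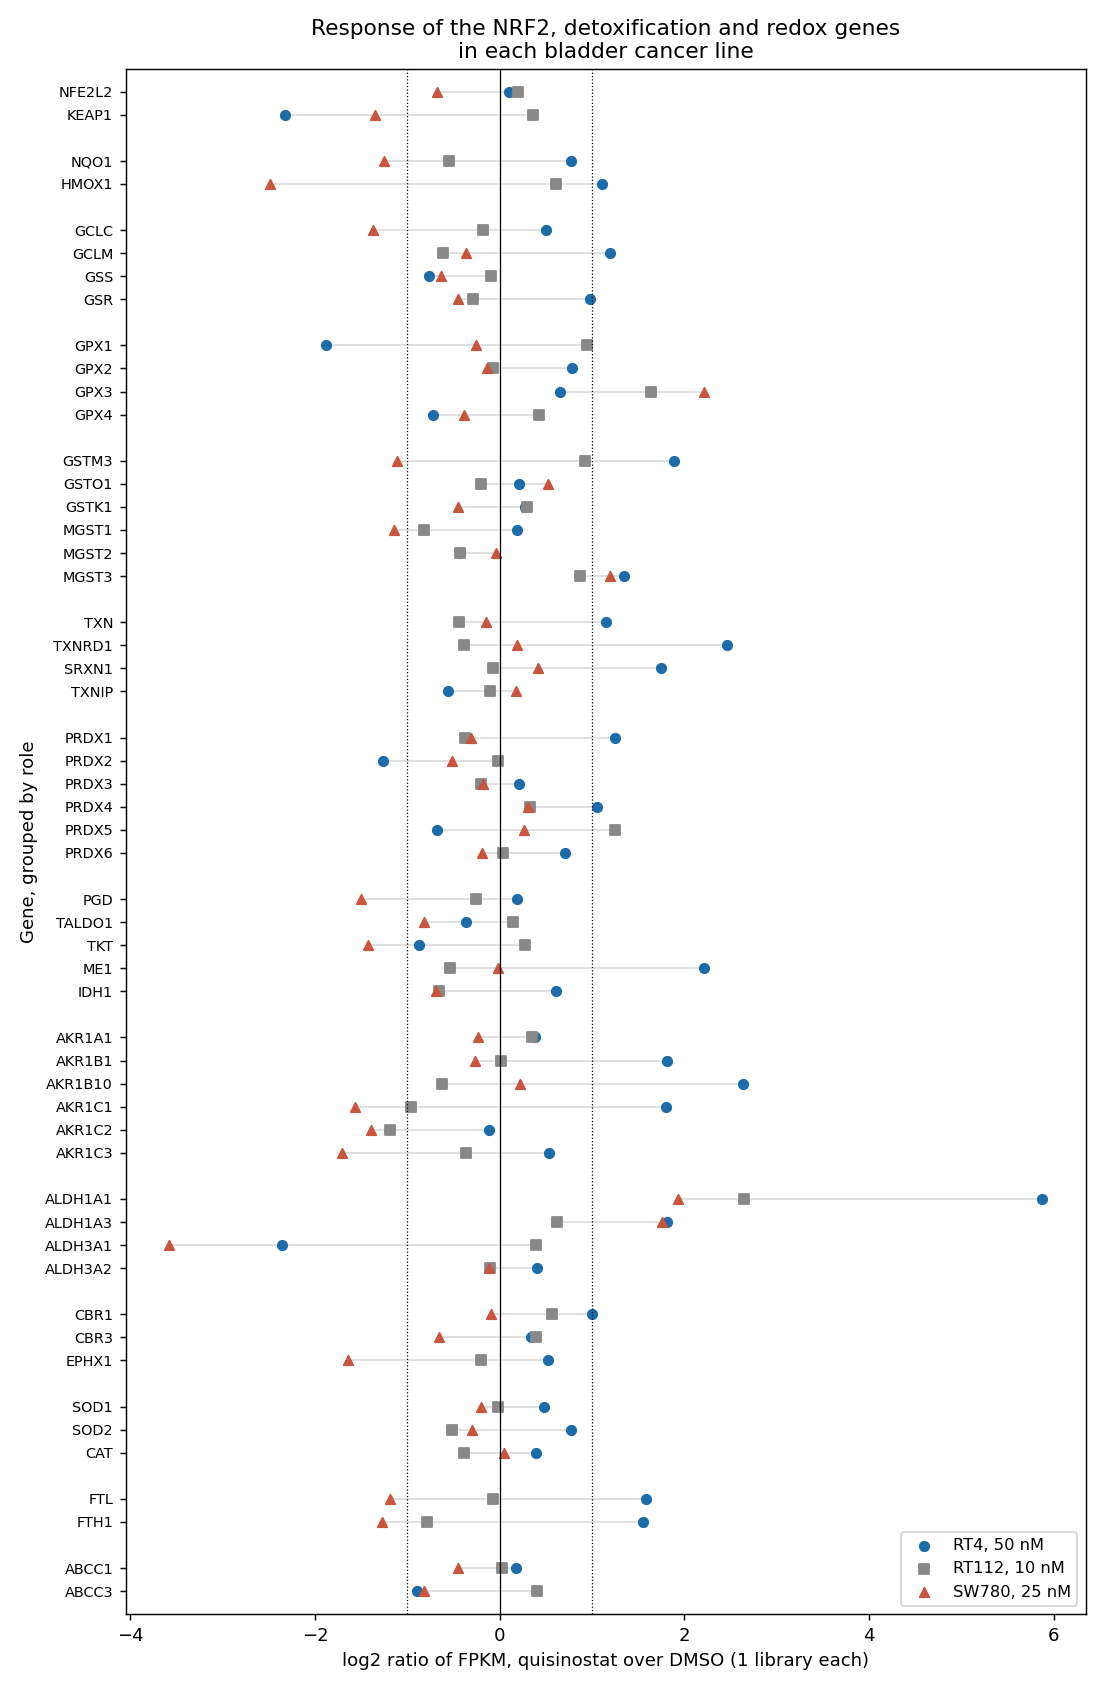
Log2 ratio of FPKM (quisinostat over DMSO, horizontal axis) for the 53 genes above 0 in all 6 libraries, grouped by role. Circles are RT4, squares RT112 and triangles SW780 cells, dotted lines mark 2-fold, and most circles lie to the right of the triangles of the same gene (medians 0.52 and -0.37).

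Several other measures of the same libraries are given beside these ratios. Ratios varied with transcript GC content, with Spearman correlations over 8407 loci of -0.49 (RT4), 0.44 (RT112) and -0.22 (SW780), and of -0.43, 0.63 and -0.13 over the 53 listed genes. These are descriptions over genes of the same pair of libraries. After a lowess curve on GC content was subtracted, the medians of the 53 genes were 0.53, -0.20 and -0.36, so the direction of each line's median stayed, while the sign of single ratios changed for 7 genes (RT4), 10 genes (RT112) and 2 genes (SW780). These sign changes are given without the share over all loci, so they are not a trait of the listed genes. The summed FPKM of 19 bladder epithelium markers was 1894 with DMSO and 1071 with quisinostat in RT4 cells, 1628 and 2552 in RT112 cells, and 1948 and 1075 in SW780 cells, and 10 of the 19 were above 10 FPKM in every library. Of 14 markers of fibroblasts, endothelium and blood, 3 had values, and their sum was at most 16.0 FPKM in RT4 and SW780 libraries and 135 in both RT112 libraries, where it was nearly all LUM. Of 5 genes that commonly answer HDAC inhibitors, 4 (RT4), 5 (RT112) and 2 (SW780) had a log2 ratio above 0. Over all 9112 loci, 4875, 4884 and 4772 did so. At least 2-fold higher were 1, 3 and 1 of the 5, beside 18.0%, 13.8% and 10.5% of loci. In RT4 cells H1F0 was 2.11-fold and GSN 1.91-fold higher. CDKN1A (1.09-fold) and CLU (1.06-fold) were barely higher there, and the TUBB3 locus, shared with TCF25, was 3.74-fold lower. The part of these measures in the results was not tested.

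**Figure D2:**
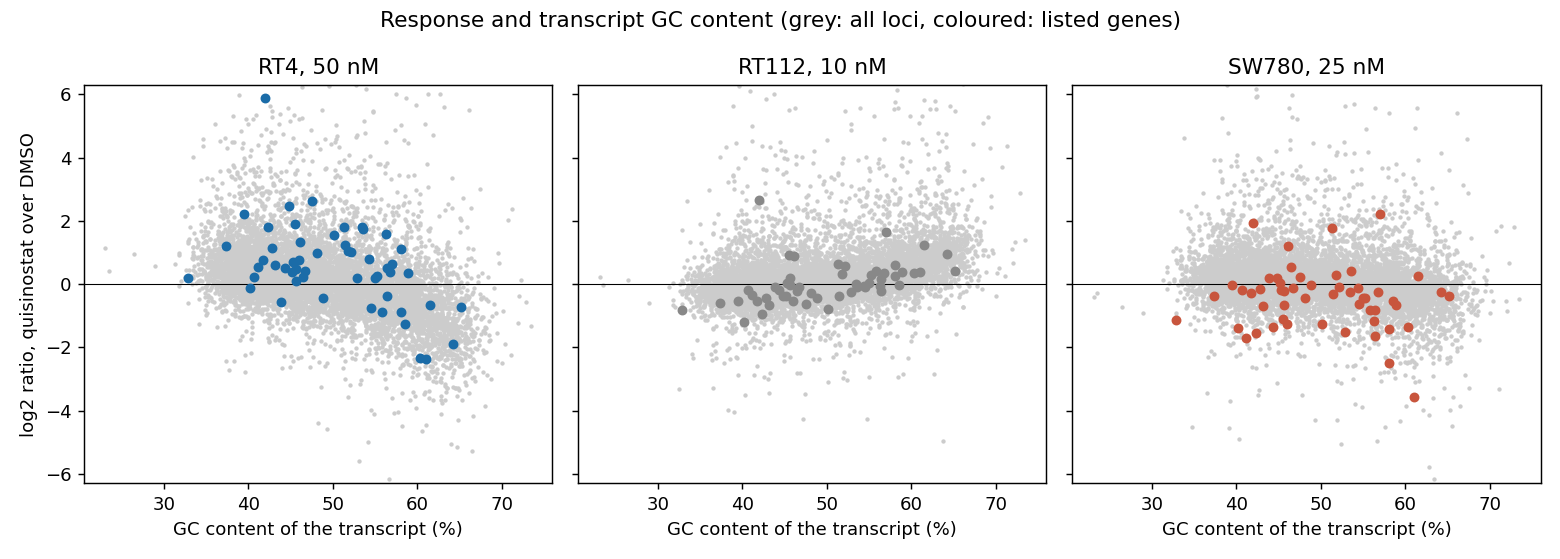
Log2 ratio of FPKM (vertical axis) against GC content of the transcript (percent, horizontal axis) in each line. Grey points are all loci with a GC value and coloured points the 53 listed genes. The cloud slopes downward for RT4 (Spearman -0.49 over all loci), upward for RT112 (0.44) and less steeply downward for SW780 (-0.22), and 44, 16 and 10 loci, none of them listed genes, lie outside the frames.

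NFE2L2 (chr2:177227595-177392697, minus strand) changed less than 2-fold in every line. It read 55.4 FPKM with DMSO and 59.3 with quisinostat in RT4 cells, 44.0 and 50.4 in RT112 cells, and 56.1 and 35.2 in SW780 cells, 1.60-fold lower in the last. KEAP1 (chr19:10486120-10503741, minus strand), the sensor that restrains NRF2, read 15.1 and 3.01 FPKM in RT4 cells, 12.4 and 15.8 in RT112 cells, and 8.72 and 3.44 in SW780 cells. It was thus 5.02-fold lower in RT4 and 2.54-fold lower in SW780 cells, and 1.28-fold higher in RT112 cells. KEAP1 has a GC content of 60.3%, and after the GC correction its log2 ratios of -2.33, 0.36 and -1.34 became -1.53, -0.23 and -1.12. The mRNA of KEAP1 was therefore at least 2-fold lower in both lines whether or not GC content was corrected for, and in RT112 cells its direction depended on that correction. Across the 3 lines limma gave KEAP1 a log2 change of -0.94 (SE 0.452, adjusted p = 0.411).

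**Figure D3:**
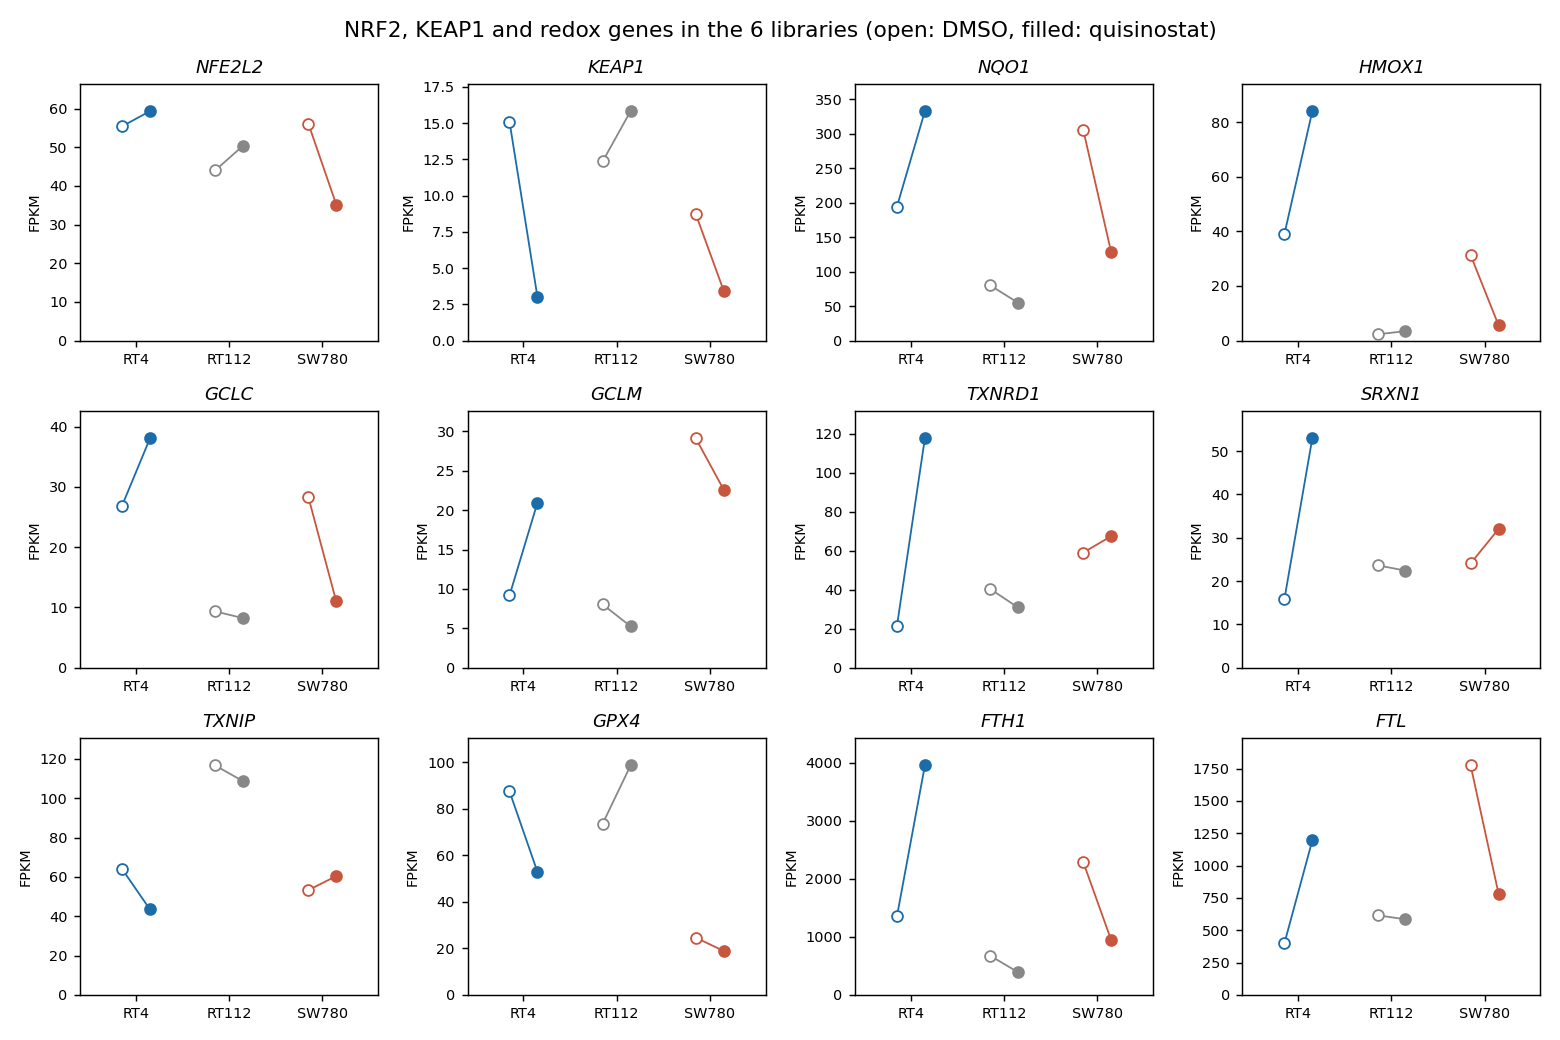
FPKM (vertical axis, starting at 0, its own scale in each panel) of NFE2L2, KEAP1 and 10 redox genes in the 6 libraries. Open circles are DMSO, filled circles quisinostat, and a line joins the libraries of a cell line. HMOX1, FTH1 and FTL climb in RT4 and drop in SW780 cells, while NFE2L2 stays between 35.2 and 59.3.

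Among the enzymes most often used as NRF2 readouts, NQO1 and HMOX1 were higher in RT4 and lower in SW780 cells. NQO1 (chr16:69706996-69726951, minus strand), which reduces quinones, read 194 and 333 FPKM in RT4 cells, 80.2 and 54.9 in RT112 cells, and 306 and 128 in SW780 cells. HMOX1 (chr22:35380361-35394214, plus strand), the inducible haem oxygenase, read 39.0 and 84.0 in RT4 cells, 2.27 and 3.45 in RT112 cells, and 31.2 and 5.57 in SW780 cells. NQO1 was 1.71-fold higher, 1.46-fold lower and 2.38-fold lower in these lines, and HMOX1 was 2.16-fold higher, 1.52-fold higher and 5.61-fold lower. RT112 cells had the lowest level of both genes with either treatment. OSGIN1, an NRF2-regulated growth inhibitor, was low throughout, between a listed 0 in RT112 cells with DMSO and 2.27 FPKM in RT4 cells with quisinostat.

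Glutathione is made by glutamate-cysteine ligase (GCLC and GCLM) and glutathione synthetase (GSS) and is kept reduced by GSR. The catalytic subunit GCLC read 26.9 and 38.1 FPKM in RT4 cells, 9.34 and 8.22 in RT112 cells, and 28.3 and 11.0 in SW780 cells. The modifier subunit GCLM, whose promoter match is shown above, read 9.17 and 20.9, 8.03 and 5.25, and 29.1 and 22.6. Both subunits were higher in RT4 and lower in the other lines, but the larger change was in GCLM in RT4 cells (2.28-fold higher, and a log2 ratio of 1.19 that became 0.64 after GC correction) and in GCLC in SW780 cells (2.58-fold lower). GSR was 1.97-fold higher in RT4 cells (71.7 and 141 FPKM) and 1.37-fold lower in SW780 cells (84.2 and 61.6). GSS went the other way in RT4 cells, 1.70-fold lower (46.6 and 27.3 FPKM), and was 1.55-fold lower in SW780 cells.

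Glutathione peroxidases use glutathione to reduce peroxides, and their members did not move alike. GPX4, which removes lipid peroxides and protects against ferroptosis, read 87.4 and 52.9 FPKM in RT4 cells, 73.5 and 98.6 in RT112 cells, and 24.6 and 18.8 in SW780 cells. Its log2 ratios of -0.73, 0.42 and -0.38 became 0.56, -0.55 and about 0 (-0.001) after GC correction, so its direction in RT4 and RT112 cells depended on the processing. GPX1, the main cytosolic enzyme, was 3.68-fold lower in RT4 cells (64.8 and 17.6 FPKM), and this log2 ratio of -1.88 became -0.69 after correction. GPX2, the epithelial enzyme, was abundant in every library (179.9 to 730.6 FPKM) and was 1.72-fold higher in RT4 cells. GPX3 (chr5:151020438-151028993, plus strand), which is secreted, read 0.137 and 0.215 FPKM in RT4 cells, 4.38 and 13.6 in RT112 cells, and 12.1 and 56.3 in SW780 cells, so it was 3.11-fold and 4.64-fold higher in RT112 and SW780 cells and near 0 in RT4 cells.

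Glutathione transferases join glutathione to electrophiles. GSTP1 (chr11:67583595-67586656, plus strand), the pi class enzyme, was listed at 0 in both RT4 libraries, where without counts a failed estimate cannot be told from absence, and read 263 and 416 FPKM in RT112 cells and 291 and 257 in SW780 cells. GSTM3 (chr1:109733932-109741038, minus strand), a mu class enzyme, read 12.6 and 47.0 FPKM in RT4 cells, 1.28 and 2.43 in RT112 cells, and 68.7 and 31.9 in SW780 cells. It was therefore 3.71-fold higher in RT4, 1.90-fold higher in RT112 and 2.15-fold lower in SW780 cells. The membrane-bound MGST3 (chr1:165630861-165661796, plus strand) read 41.9 and 106 FPKM in RT4 cells, 22.9 and 42.0 in RT112 cells, and 12.6 and 28.9 in SW780 cells. It was higher with quisinostat in every line, by 2.54-fold, 1.83-fold and 2.28-fold, while its relative MGST1 was lower in RT112 (1.76-fold) and SW780 cells (2.22-fold). GSTO1, GSTK1 and MGST2 changed less than 1.5-fold in each line.

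The thioredoxin system, which keeps protein thiols reduced with electrons from NADPH, had 3 of its 4 members at least 2-fold higher in RT4 cells (2 after GC correction, where the log2 ratio of TXN went from 1.148 to 0.77), beside 18.0% of loci, and none in the other lines. TXNRD1 (chr12:104215779-104350305, plus strand), the selenoenzyme that reduces thioredoxin, read 21.4 and 118 FPKM in RT4 cells, 40.5 and 30.9 in RT112 cells, and 59.1 and 67.5 in SW780 cells. SRXN1 (chr20:646615-653370, minus strand), which repairs overoxidised peroxiredoxins, read 15.8 and 52.9, 23.6 and 22.4, and 24.1 and 32.0. The locus of SRXN1 in the table also carries the name AL121758.1, and the 2 cannot be separated. TXN, thioredoxin itself, read 143 and 317 in RT4 cells, 328.6 and 243 in RT112 cells, and 318 and 288 in SW780 cells. RT4 cells thus moved from the lowest level of all 3 genes with DMSO to the highest with quisinostat, by 5.50-fold for TXNRD1, 3.35-fold for SRXN1 and 2.22-fold for TXN. TXNIP, which binds and blocks thioredoxin, read 64.0 and 43.4 FPKM in RT4 cells, 116.6 and 108.6 in RT112 cells, and 53.2 and 60.4 in SW780 cells, a change of less than 1.5-fold in each line.

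Peroxiredoxins reduce peroxides with electrons from thioredoxin. PRDX1 was 2.38-fold higher in RT4 cells (294 and 698 FPKM) and 1.30-fold and 1.24-fold lower in RT112 and SW780 cells. PRDX4, the enzyme of the endoplasmic reticulum, read 27.2 and 56.6 in RT4 cells, 54.4 and 68.1 in RT112 cells, and 62.8 and 77.5 in SW780 cells, higher in each line by 2.08-fold, 1.25-fold and 1.23-fold. PRDX2 was 2.40-fold lower in RT4 cells (269.9 and 113 FPKM), a log2 ratio of -1.26 that became -0.65 after GC correction. PRDX5 was 2.38-fold higher in RT112 cells (101 and 241), a log2 ratio of 1.25 that became 0.57 after GC correction, and 1.59-fold lower in RT4 cells, where the sign changed after GC correction (-0.67 to 0.25). PRDX3 and PRDX6 stayed within 1.64-fold in every line.

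NADPH, the reductant behind glutathione and thioredoxin, is supplied by the pentose phosphate enzymes PGD, TALDO1 and TKT and by ME1 and IDH1. ME1, the cytosolic malic enzyme, read 6.86 and 31.7 FPKM in RT4 cells, 11.7 and 8.04 in RT112 cells, and 31.2 and 30.8 in SW780 cells, so that RT4 cells with quisinostat reached the level of SW780 cells (4.62-fold higher). PGD read 52.2 and 59.4 in RT4 cells, 103.7 and 87.0 in RT112 cells, and 269.98 and 95.3 in SW780 cells, 2.83-fold lower in the last. TKT read 87.3 and 47.5, 24.9 and 30.0, and 42.4 and 15.8. In SW780 cells PGD was 2.83-fold, TKT 2.68-fold, TALDO1 1.77-fold and IDH1 1.61-fold lower, and ME1 was nearly unchanged (1.01-fold lower). Of the 5 genes, 2 were at least 2-fold lower in that line, beside 7.35% of loci. In RT4 cells ME1, IDH1 (1.52-fold) and PGD (1.14-fold) were higher and TKT (1.84-fold) and TALDO1 (1.29-fold, with the sign changed by GC correction) were lower.

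Aldo-keto reductases turn aldehydes and ketones into alcohols. AKR1B1, aldose reductase, read 131 and 459 FPKM in RT4 cells, 71.0 and 71.9 in RT112 cells, and 313 and 261 in SW780 cells. AKR1B10 (chr7:134527592-134541408, plus strand), a retinal and aldehyde reductase, read 0.850 and 5.28 in RT4 cells, 0.749 and 0.487 in RT112 cells, and 32.1 and 37.4 in SW780 cells. These were 3.51-fold and 6.21-fold higher in RT4 cells and within 1.54-fold in the other lines. AKR1A1, which reduces a broad range of aldehydes, stayed within 1.31-fold in each line. The steroid and ketone reductases of the AKR1C cluster on chromosome 10 were instead lower in SW780 cells, by 2.95-fold for AKR1C1, 2.62-fold for AKR1C2 and 3.25-fold for AKR1C3.

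AKR1C1 (chr10:4963253-4983283, plus strand) read 7.60 and 26.5 FPKM in RT4 cells, 39.4 and 20.3 in RT112 cells, and 118 and 40.0 in SW780 cells. AKR1C2 (chr10:4987400-5018031, minus strand) read 66.0 and 61.1, 32.6 and 14.3, and 68.0 and 26.0. The coding sequences of AKR1C1 and AKR1C2 are 98.0% identical, those of AKR1C3 and either one at most 91.4%, so the division of reads between the first pair is uncertain. Their sum was 73.6 and 87.6 FPKM in RT4 cells, 72.0 and 34.6 in RT112 cells, and 186 and 66.0 in SW780 cells. The 3.49-fold higher AKR1C1 of RT4 cells was thus a log2 ratio of 0.25 in the sum, while the sum was lower in RT112 (-1.06) and SW780 cells (-1.50). AKR1C3, which makes testosterone from androstenedione, read 148 and 214 in RT4 cells, 71.9 and 56.0 in RT112 cells, and 424 and 130.4 in SW780 cells.

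Aldehyde dehydrogenases held the highest and the lowest ratio of the 53 genes. ALDH1A1 (chr9:72900662-73080442, minus strand), which makes retinoic acid from retinal, read 0.724 and 42.4 FPKM in RT4 cells, 0.0185 and 0.116 in RT112 cells, and 0.814 and 3.10 in SW780 cells. It was 58.5-fold higher in RT4 cells, and 0.571% of loci had a higher ratio in that line. Its 6.27-fold ratio in RT112 cells compares values close to 0 and became a log2 ratio of 0.13 with a pseudocount of 1. ALDH1A3 (chr15:100877714-100916626, plus strand), a second retinal dehydrogenase, read 110.6 and 389.8 in RT4 cells, 226 and 349 in RT112 cells, and 154 and 523 in SW780 cells, higher by 3.52-fold, 1.54-fold and 3.39-fold. ALDH3A1 (chr17:19737984-19748943, minus strand), which oxidises aromatic and lipid aldehydes, read 25.7 and 5.02 in RT4 cells, 4.51 and 5.90 in RT112 cells, and 249 and 20.9 in SW780 cells. It was 5.12-fold lower in RT4 and 11.9-fold lower in SW780 cells, and its log2 ratios of -2.36, 0.39 and -3.57 became -1.48, -0.26 and -3.33 after GC correction. ALDH3A2 stayed within 1.33-fold, and ALDH3B1 was listed at 0 in every library except RT112 cells with quisinostat (4.98 FPKM).

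Of the carbonyl reductases, which reduce quinones and drug carbonyls, CBR1 read 28.95 and 58.1 FPKM in RT4 cells, 55.3 and 82.0 in RT112 cells, and 52.8 and 49.6 in SW780 cells, 2.01-fold higher in RT4 cells. CBR3 stayed within 1.57-fold in each line. EPHX1, the microsomal epoxide hydrolase, read 59.6 and 85.7 in RT4 cells, 34.5 and 29.9 in RT112 cells, and 111 and 35.7 in SW780 cells, 3.11-fold lower in the last. The superoxide dismutases SOD1 and SOD2 and catalase (CAT), which dispose of superoxide and hydrogen peroxide, were each higher in RT4 cells, by 1.39-fold, 1.71-fold and 1.31-fold, and none passed 1.5-fold in another line. The export pump ABCC3 was 1.86-fold lower in RT4 and 1.76-fold lower in SW780 cells, and ABCC1 stayed within 1.37-fold.

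Ferritin, the cage of FTH1 and FTL chains that stores iron, gave the highest levels of the listed genes and opposite ratios in RT4 and SW780 cells. FTH1 (chr11:61959718-61967660, minus strand), the heavy chain that oxidises iron, read 1354 and 3957 FPKM in RT4 cells, 676 and 391 in RT112 cells, and 2292 and 947 in SW780 cells. FTL (chr19:48965301-48966878, plus strand), the light chain, read 398 and 1195, 615 and 585, and 1774.5 and 782. Both chains together made 0.664% and 2.03% of all FPKM in RT4 cells, 0.502% and 0.376% in RT112 cells, and 1.67% and 0.728% in SW780 cells. The ratio of FTH1 to FTL, in FPKM, was 3.40 and 3.31 in RT4 cells and 1.29 and 1.21 in SW780 cells, so both chains moved by about the same factor there, and it went from 1.10 to 0.669 in RT112 cells. GENCODE 29 holds 25 pseudogenes of FTH1, of which 6 had rows here, with a sum of 20.1 and 72.7 FPKM in RT4 cells and 54.8 and 21.2 in SW780 cells. How reads were divided between FTH1 and these copies is unknown.

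Genes that were higher in RT4 and lower in SW780 cells were counted after the values had been seen. HMOX1, GSTM3, AKR1C1, FTL and FTH1 were at least 2-fold higher in RT4 and at least 2-fold lower in SW780 cells, 5 of 53 genes (9.43%) beside 0.856% of loci. At a limit of 0.3 on the log2 scale, 14 genes (26.4%) were above 0.3 in RT4 and below -0.3 in SW780 cells, beside 4.66% of loci. The 14 were NQO1, HMOX1, GCLC, GCLM, GSR, GSTM3, PRDX1, IDH1, AKR1C1, AKR1C3, CBR3, EPHX1, FTL and FTH1. No listed gene had the reverse pattern, which 357 of the 9112 loci showed. The same 5 genes remained past 2-fold in both lines after GC correction, where their log2 ratios in RT4 cells were 1.67 for HMOX1, 1.62 for GSTM3, 1.41 for AKR1C1, 1.97 for FTL and 1.48 for FTH1. With 1 library per line and treatment the difference between the responses could not be tested.

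**Figure D4:**
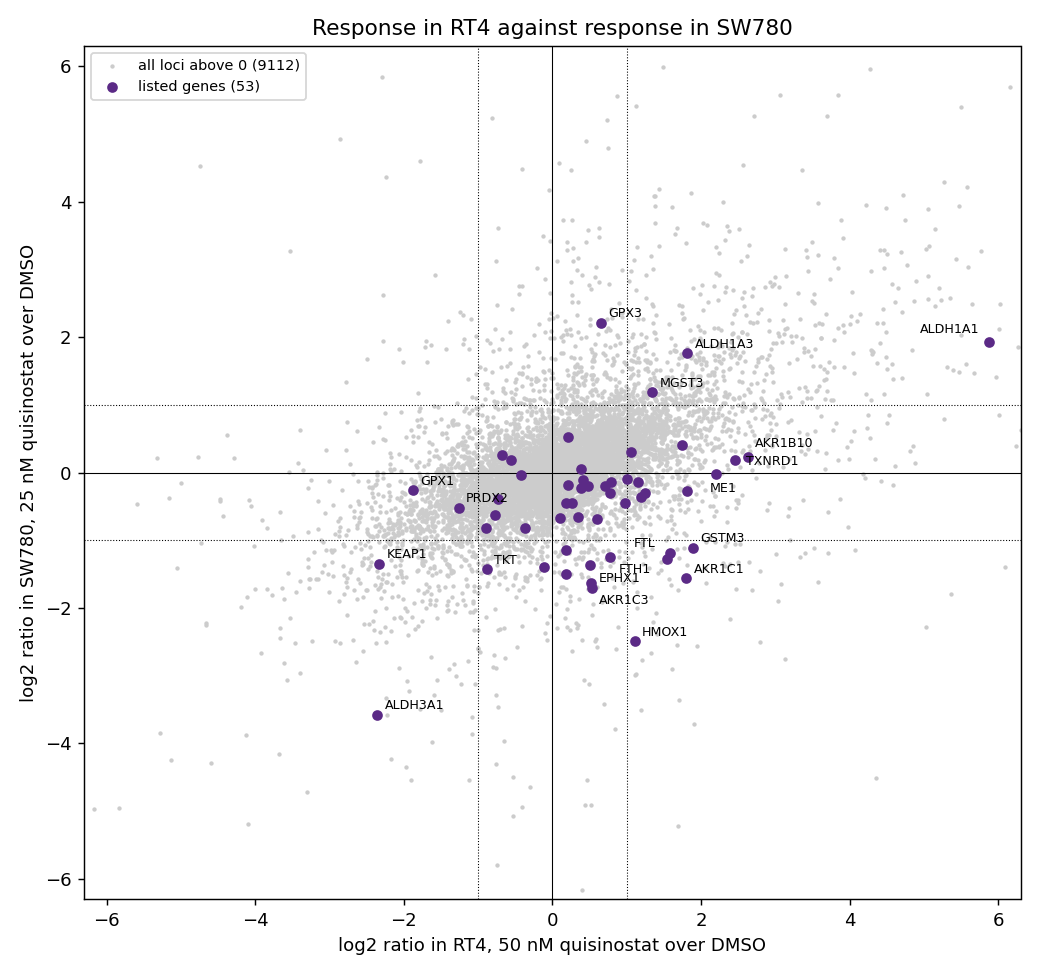
Log2 ratio in RT4 cells (horizontal axis) against log2 ratio in SW780 cells (vertical axis). Grey points are the 9112 loci above 0 in all libraries, purple points the 53 listed genes, and dotted lines mark 2-fold. HMOX1, GSTM3, AKR1C1, FTL and FTH1 lie in the lower right region, which holds 0.856% of loci, and 63 loci, none of them listed genes, lie outside the frame.

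The study's limit for genes lowered in all lines was -0.3 on the log2 scale, and 0.3 was used here for higher genes. Of the listed genes, GPX3, MGST3, PRDX4, ALDH1A1 and ALDH1A3 were above 0.3 on the log2 scale in RT4, RT112 and SW780 cells, 5 of 53 (9.43%) beside 11.4% of loci. The ratios of GPX3 in RT4 cells (0.137 and 0.215 FPKM) and ALDH1A1 in RT112 cells (0.0185 and 0.116 FPKM) compare values near 0. PRDX4 in SW780 cells was barely past the limit, at 0.303. No listed gene was below -0.3 in all 3 lines, beside 4.99% of loci. A change common to the lines was also tested with limma on log2(FPKM + 1), with cell line as a block and the lines as replicates. None of the 55 genes tested, and none of the 9430 loci (0%), passed an adjusted p of 0.05. At an unadjusted p under 0.05, GPX3, MGST3, PRDX4 and ALDH1A3 were higher, 4 genes (7.27%) beside 9.68% of loci, and AKR1C2 and ALDH3A1 were lower, 2 genes (3.64%) beside 4.16%. The smallest p-values belonged to MGST3, with a log2 change of 1.10 (SE 0.185, adjusted p = 0.226), and ALDH1A3, with 1.40 (SE 0.279, adjusted p = 0.245), both higher in 3 of 3 lines. ALDH3A1 was -1.78 (SE 0.694, adjusted p = 0.353) and AKR1C2 was -0.87 (SE 0.282, adjusted p = 0.319). The 6 genes, beside 1305 loci (13.8%), became 2 without SW780 cells (464 loci, 4.92%), 10 without RT4 cells (762, 8.08%), 13 without RT112 cells (2062, 21.9%), 11 after GC correction (1961, 22.7%) and 1 without the block for cell line (420, 4.45%).

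Levels between the lines, treatment aside, were compared by limma with treatment as a block. Each line had 1 library per treatment, so the spread within a line includes the part of the response that differs between lines. Whether a gene passed therefore depended partly on how alike its responses were, and not on its levels alone. The moderated F-test over the lines passed an adjusted p of 0.05 for 7 of 55 genes (12.7%), beside 5.96% of loci. These were GSTP1 (adjusted p = 0.0026), GPX3 (0.0225), AKR1B10 (0.0227), MGST3 (0.0328), CAT (0.039), GSTM3 (0.0449) and GPX4 (0.0449). GSTP1 and GPX3 were lowest in RT4 cells, AKR1B10 was highest in SW780 cells, and MGST3 and CAT were in the order RT4, RT112, SW780. GSTM3 was lowest in RT112 cells and GPX4 lowest in SW780 cells. The 7 became 0 without either RT4 library, when no locus passed, and 1 without either SW780 library, when 12 (without DMSO) or 7 loci (without quisinostat) passed. They became 8 without either RT112 library (5.72% or 4.97% of loci) and 21 after GC correction (20.4% of loci).

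Between RT4 and RT112 cells 3 genes (GPX2, GPX3 and GSTP1, 5.45%) passed, beside 4.85% of loci. GPX2 was 1.59 higher in RT4 cells on the log2(FPKM + 1) scale (SE 0.289, adjusted p = 0.0438) and GPX3 was lower, at -2.92 (SE 0.507, adjusted p = 0.0391). Between RT4 and SW780 cells 5 genes (GPX3, GSTP1, MGST3, AKR1B10 and CAT, 9.09%) passed, beside 5.10% of loci. RT4 minus SW780 was -4.54 for GPX3 (SE 0.507, adjusted p = 0.0149), -3.39 for AKR1B10 (SE 0.516, adjusted p = 0.0317), 1.75 for MGST3 (SE 0.227, adjusted p = 0.0231) and 1.803 for CAT (SE 0.257, adjusted p = 0.0288). GSTP1 had an adjusted p of 0.00171 against RT112 and 0.00206 against SW780 cells, both resting on its listed 0 in RT4 cells. Between RT112 and SW780 cells AKR1B10 alone passed (1.82%, beside 1.13% of loci), at -4.47 (SE 0.516, adjusted p = 0.0325). For CAT the levels with DMSO and quisinostat were 73.1 and 95.6 FPKM in RT4, 48.3 and 36.8 in RT112, and 22.9 and 23.6 in SW780 cells.

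**Figure D5:**
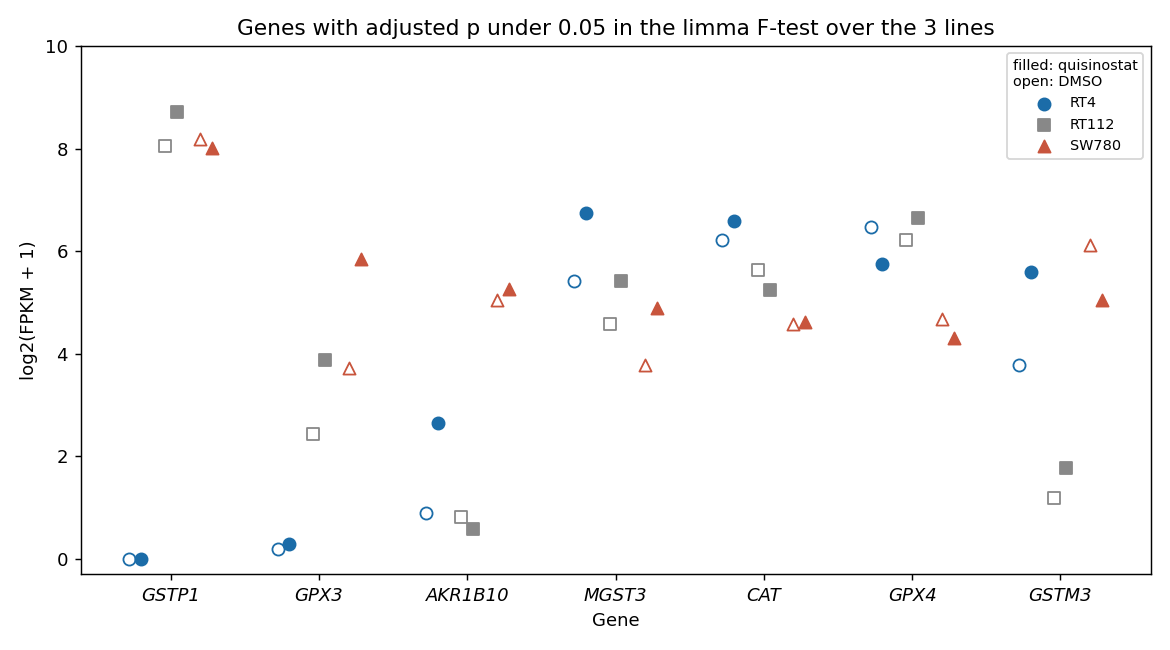
log2(FPKM + 1) (vertical axis) of the 7 genes that passed the limma F-test over the 3 lines. Circles are RT4, squares RT112 and triangles SW780 cells, open for DMSO and filled for quisinostat. GSTP1 sits at 0 in both RT4 libraries and near 8 or above in the other 4.

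A wider list of 137 other genes of these pathways, drawn up by role, was counted in the same way. Of these, 111 had values and 103 were above 0 in all libraries. In RT4 cells 33 (32.0%, beside 18.0% of loci) were at least 2-fold higher and 16 (15.5%, beside 14.1%) lower. In RT112 cells these were 15 (14.6%, beside 13.8%) and 2 (1.94%, beside 3.60%), and in SW780 cells 8 (7.77%, beside 10.5%) and 12 (11.7%, beside 7.35%). The median log2 ratios were 0.26, 0.12 and -0.12. Above 0.3 in all lines were 14 genes (13.6%, beside 11.4%) and below -0.3 were 5 (4.85%, beside 4.99%). Of 109 tested by limma across lines none passed an adjusted p of 0.05, and at an unadjusted p under 0.05 there were 12 higher (11.0%, beside 9.68%) and 6 lower (5.50%, beside 4.16%). The F-test over lines passed 7 (6.42%, beside 5.96%). Of the 103, 3 (2.91%, beside 0.856%) were at least 2-fold higher in RT4 and at least 2-fold lower in SW780 cells, and 13 (12.6%, beside 4.66%) were so at the limit of 0.3.

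The largest change shared by the lines in this wider list was SELENOP, the selenium carrier of plasma. It read 2.06 and 46.3 FPKM in RT4 cells, 0.0775 and 1.56 in RT112 cells, and 0.259 and 3.90 in SW780 cells, 22.4-fold, 20.1-fold and 15.1-fold higher. The next by the weakest of the 3 ratios were GSTA1, an alpha class glutathione transferase (log2 ratios 4.46, 2.15 and 3.02), SESN3, a sestrin (1.07, 2.23 and 1.54), GLRX, glutaredoxin (3.54, 1.52 and 0.62), and MSRB2, a methionine sulfoxide reductase (1.34, 0.58 and 0.86). Several of these ratios start from DMSO values near 0. GSTA1 read 0.246, 0.259 and 0.0798 FPKM with DMSO in RT4, RT112 and SW780 cells. In RT112 cells with DMSO, SESN3 read 0.161 and GLRX 0.295. The SELENOP ratios in RT112 and SW780 cells have the same limit. Among the lowest was MAFF, a small MAF partner of NRF2, which read 12.8 and 1.87 FPKM in RT4 cells, 15.4 and 6.71 in RT112 cells, and 1.86 and 0.983 in SW780 cells. DHRS2 (-2.20, -0.47 and -1.05) and DCXR (-2.55, -0.38 and -1.84), both carbonyl reductases, RPIA of the pentose phosphate pathway (-0.38, -0.66 and -0.58) and RBX1, a subunit of the ligase that marks NRF2 for degradation (-0.87, -0.48 and -0.38), were also lower in every line. Limma across the lines gave adjusted p-values of 0.257 for SELENOP and 0.311 for MAFF.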

How the data were processed

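RNA from 3 bladder cancer cell lines was measured after 2 days with quisinostat or DMSO, in 6 libraries grouped by their labels. The cell line field of 1 library (SW780 with quisinostat) is spelt differently from its title, and the title was used. According to the labels and methods, polyadenylated RNA was made into stranded libraries, read on an Illumina NovaSeq, and passed by the authors through HISAT2, StringTie and Ballgown. The submitters' processing notes name CASAVA 1.8.2, Trimmomatic 0.36, HISAT2 2.2.1, SAMtools 1.15.1, StringTie 2.2.1 and GRCh38. Which annotation release was used, and by what rule loci entered the table, is not given in the sources used here.

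The deposited values are FPKM per assembled locus, which the authors scaled to transcript length and mapped fragments. The depth of the libraries is unknown, and no interval from counts can be given. Median FPKM was 6.59 to 7.39 per library and 213 to 534 loci were at 0. Nothing says that libraries came from separate cultures, so p-values measure the spread between these libraries.

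Log2 ratios used no pseudocount and the loci above 0 in all libraries. The limma 3.58.1 tests (R 4.3.3) used log2(FPKM + 1), loci with a mean of at least 1 FPKM, a trend of variance on mean, and Benjamini-Hochberg adjustment over all loci. A change on that scale understates the change of low genes. Libraries were paired because each pair comes from the same cell line, and deviations from the treatment means correlated at 0.60, 0.50 and 0.73 within RT4, RT112 and SW780 and between -0.50 and -0.11 across lines. The fits were run on simulated data with independent noise. Planted changes were common to the lines or a shift in the level of 1 line. Responses that differ between lines and trends with GC content were not simulated. GC content came from GENCODE 29 transcripts, positions from GENCODE 29 on GRCh38, and the correction was a lowess curve (span 0.3) per line. Python 3.11.15 was used for the rest. Alternatives were pseudocounts, filters on low values, centring, rescaling, thresholds, the GC correction, no trend, no block and leaving out a line or library.

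The genes and lists were chosen with earlier results of these data known. Values in all libraries are given for 12 core genes (NFE2L2, KEAP1, NQO1, HMOX1, GCLC, GCLM, TXNRD1, SRXN1, TXNIP, GPX4, FTH1 and FTL), for genes at least 2-fold changed the same way in 2 or more lines or oppositely in a pair of lines, for genes past the F-test with at least an 8-fold range over DMSO libraries, and for genes past 0.3 in all lines. Others are named to complete their role. From the wider list the 5 largest rises and falls by the weakest ratio are named.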

Additional observations from a re-analysis of the deposited data

Results flagged for a closer look

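For 5 genes the response was at least 2-fold higher in one line and at least 2-fold lower in another, and the difference between the lines was not tested because each rests on 1 library per line and treatment. The log2 ratios in RT4 and SW780 cells were 1.11 and -2.49 for HMOX1, 1.89 and -1.11 for GSTM3, 1.802 and -1.56 for AKR1C1, 1.58 and -1.18 for FTL, and 1.55 and -1.27 for FTH1. In RT112 cells the ratios were 0.61 for HMOX1, 0.92 for GSTM3, -0.95 for AKR1C1, -0.07 for FTL and -0.79 for FTH1. AKR1C1 is nearly identical to AKR1C2, and the sum of both had a log2 ratio of 0.25 in RT4 and -1.50 in SW780 cells.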

How the results depend on the processing

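No change of at least 2-fold in a gene named by the rule turned its direction under the alternatives run, but GC correction changed the sign of smaller ratios for 7 listed genes (RT4), 10 (RT112) and 2 (SW780), among them GPX4 in RT4 (-0.73 to 0.56) and RT112 cells (0.42 to -0.55) and KEAP1 in RT112 cells (0.36 to -0.23). Counts of listed genes that moved by over 1.5 times were these. These counts and the sign changes are given without the share of all loci at each setting. They show dependence on processing and not a trait of these genes. GC correction also raised the share of all loci past the F-test from 5.96% to 20.4%. The share with an unadjusted p under 0.05 in limma across lines went from 13.8% to 22.7%. With GC correction, 2 genes were at least 2-fold lower in RT4 cells, 3 were below -0.3 in all lines, 11 had an unadjusted p under 0.05 across lines, and 21, 17, 11 and 10 passed the F-test and the contrasts RT4 minus RT112, RT4 minus SW780 and RT112 minus SW780. Centring on the median gave 2 genes at least 2-fold lower in RT112 cells. A pseudocount of 1 left 2 genes and a threshold of 1 left 1 gene higher in all lines. With a threshold of 0.3 in place of 2-fold, 33 were higher and 12 lower in RT4, 16 and 16 in RT112, and 7 and 28 in SW780 cells, and with 1.5-fold 9 were lower in RT4 and 8 higher and 7 lower in RT112 cells. Without the replicate block for cell line, 1 gene had an unadjusted p under 0.05 instead of 6. For RT4 minus RT112, no treatment term and no filter each left 1 gene. For RT112 minus SW780, no filter and a pseudocount of 0.1 left 0 and rescaling gave 2, and without the trend the F-test passed 4. Leaving out a line gave 5 to 10 higher in all lines (10 without SW780), 1 to 9 lower in all lines, and 2 to 13 with an unadjusted p under 0.05. Leaving out a library gave 0 to 8 in the F-test, 0 to 3 for RT4 minus RT112, 0 to 9 for RT4 minus SW780 and 0 to 1 for RT112 minus SW780. Of values for single genes, 973 kept their side of the threshold, 30 no longer passed, 7 newly passed and 7 crossed the 2-fold limit. Depth is unknown, and low genes such as ALDH1A1 in RT112 cells rest on values near 0.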

Other observations

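The order of the lines by level differed between the treatments, a count added after the values were seen. With DMSO, 33 of 55 listed genes (60.0%) had their highest FPKM in SW780 cells, beside 34.7% of all loci, 13 (23.6%) in RT4 cells beside 36.5%, and 9 (16.4%) in RT112 cells beside 28.8%. With quisinostat, 29 of 56 (51.8%) were highest in RT4 cells, beside 33.3% of loci, 14 (25.0%) in SW780 cells beside 31.8%, and 13 (23.2%) in RT112 cells beside 34.9%. RT112 cells had the lowest level for 27 genes with DMSO (49.1%, beside 34.9% of loci) and 28 with quisinostat (50.0%, beside 36.5%). The order was not tested.

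The spread between the lines narrowed for some genes and widened for others. The genes named are examples, and neither direction was counted over the listed genes or all loci. The highest DMSO level over the lowest was 55.3 for ALDH3A1 and 5.17 for PGD, and with quisinostat these ratios were 4.17 and 1.61. For the sum of AKR1C1 and AKR1C2, whose reads are not reliably divided, the ratio was 2.58 with DMSO and 2.53 with quisinostat. For ALDH1A1 the ratio went from 44.1 to 367 and for GPX3 from 88.3 to 261. These larger ratios divide by values near 0. They were 0.0185 and 0.116 FPKM for ALDH1A1 in RT112 cells, and 0.137 and 0.215 FPKM for GPX3 in RT4 cells. For FTH1 and NQO1, which were not near 0 in any library, the ratio also widened, from 3.39 to 10.12 and from 3.82 to 6.065.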
